A study of Mus musculus with 6 samples.

Results

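The genes described here are the 10 that set the G1 decision of the cell cycle: the D cyclins Ccnd1, Ccnd2 and Ccnd3, their kinases Cdk4 and Cdk6, the kinase inhibitors Cdkn1a, Cdkn1b, Cdkn2a and Cdkn2b, and the retinoblastoma gene Rb1. They were chosen by name, with earlier results of these data known, and all 10 were found among the 26458 gene symbols of the deposited reports. RNA came from sorted Thy1+HE- cells of C57BL/6 mouse hearts. In the TAC group (transaortic constriction, 3 libraries) the aorta had been narrowed for 7 days, so that the heart pumped against pressure, and the sham group (3 libraries) had the operation without narrowing. Thy1 is a surface protein of many cardiac fibroblasts. What HE stands for is not explained in the labels, which also give no age, no genetic modification and no agent for either group. They do not say whether a library came from 1 animal or a pool, so the p-values describe the spread of these samples, technical or not. By its title the study concerned proliferating and activated fibroblasts of the injured heart, and for the G1 genes TAC against sham is the comparison its design holds.

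A cell leaves G1 when D cyclins bind CDK4 or CDK6 and the kinases phosphorylate the retinoblastoma protein, which then releases E2F transcription factors that turn on the genes of DNA replication. The INK4 inhibitors, among them the products of Cdkn2a and Cdkn2b, bind CDK4 and CDK6 directly. The Cip/Kip inhibitors, among them the products of Cdkn1a (p21), Cdkn1b (p27) and Cdkn1c (p57), restrain the later cyclin E and cyclin A kinases. Adult cardiac fibroblasts are mostly quiescent, and pressure overload is known to bring a part of them into the cycle.

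After TAC the kinases Cdk4 and Cdk6 rose and the inhibitor Cdkn1a fell, while no D cyclin passed the test. Cdk4 rose 1.57-fold and Cdk6 rose 1.601-fold, and Cdkn1a fell to 0.606 times its sham value. Of the 10 members 8 passed the filter on low counts, and 3 of these 8 (37.5%) were called, against 18.7% of all 12612 tested genes. The rises were 2 of 8, against 8.28% of all tested genes, and the falls 1 of 8, against 10.4%. Without sham replicate 2 only Cdkn1a was called among the members, and 10.7% of all tested genes. With so few genes these counts are a description only. The median log2 change of the 8 was -0.10 and that of all tested genes 0.01. The threshold for a call was 0.05 on the Benjamini-Hochberg adjusted p of edgeR's quasi-likelihood test, which also gave each adjusted p below unless another tool is named.

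The sequences before the transcription starts of the 3 genes that changed are shown because these genes carry the result, and each line holds the 250 bases before an annotated start, 5′ to 3′ on the gene's own strand, from RefSeq in GRCm38.p6, the assembly that mm10 names. In Cdk4 and Cdk6 the capitals mark the E-box CACGTG, which is its own reverse complement and the core site of MYC and related factors. In the first Cdkn1a line the capitals mark a pair of CATG cores 6 bases apart (a pattern that is also its own reverse complement), the spacing of the p53 binding sequence, and in the second they mark TATAAG, searched on both strands, a form of the TATA box.
Cdk4: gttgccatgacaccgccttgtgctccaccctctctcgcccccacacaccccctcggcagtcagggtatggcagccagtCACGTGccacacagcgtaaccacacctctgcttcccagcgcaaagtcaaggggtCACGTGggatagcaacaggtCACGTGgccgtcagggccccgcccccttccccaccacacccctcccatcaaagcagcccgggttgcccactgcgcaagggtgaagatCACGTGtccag
Cdk6: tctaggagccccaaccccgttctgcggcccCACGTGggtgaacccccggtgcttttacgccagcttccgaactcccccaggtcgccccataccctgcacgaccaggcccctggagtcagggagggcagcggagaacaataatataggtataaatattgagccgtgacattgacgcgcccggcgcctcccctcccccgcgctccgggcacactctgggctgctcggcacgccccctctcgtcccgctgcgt
Cdkn1a, first start: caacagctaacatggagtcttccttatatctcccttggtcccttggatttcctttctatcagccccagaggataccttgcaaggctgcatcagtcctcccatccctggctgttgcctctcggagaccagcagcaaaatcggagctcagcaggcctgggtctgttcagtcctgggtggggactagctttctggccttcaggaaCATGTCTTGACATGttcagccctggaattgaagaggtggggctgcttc
Cdkn1a, second start: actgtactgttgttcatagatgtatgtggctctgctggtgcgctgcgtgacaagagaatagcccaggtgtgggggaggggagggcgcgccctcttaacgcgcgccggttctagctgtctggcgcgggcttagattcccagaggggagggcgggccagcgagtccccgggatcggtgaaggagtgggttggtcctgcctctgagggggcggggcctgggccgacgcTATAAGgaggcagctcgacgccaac

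The Cdk4 window (chr10:127063285-127063534, plus strand) held 4 E-boxes, beginning 172, 118, 98 and 11 bases before the start. Of 32851 windows of the same length in the promoter table, 6.02% held at least 1 E-box and 7 windows (0.0213%) at least 4. The Cdk6 window (chr5:3343643-3343892, plus strand) held 1, 220 bases before the start. That window lies within the annotated Cdk6 gene (3341004 to 3531008), so its start is not the most upstream end of the gene. The first Cdkn1a start has the window chr17:29090729-29090978, plus strand, and its CATG pair began 48 bases before that start. Windows with such a pair made up 0.490% of all. The second Cdkn1a start lies 2790 bases further along (window chr17:29093519-29093768), and its TATAAG began 25 bases before it. TATAAG or its reverse complement was in 6.65% of windows, and the first Cdkn1a window also held CTTATA, 228 bases before its start. Neither Cdkn1a window held an E-box. A match describes letters, and no binding was measured in these samples. Windows were also present for Ccnd3 (2 starts), Cdkn1b, Cdkn2a (2 starts) and Cdkn2b, and none of these 6 held an E-box or a CATG pair.

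Levels of different genes can be compared only per length, and for that the deposited RPKM (reads scaled to the row length and to library depth) was used. Cdkn1a stood far above all the others, with 423.1 ± 39.4 RPKM in sham and 254.7 ± 40.9 in TAC (SD, n = 3 each), rank 136 and rank 309 of all 26458 symbols. In sham it was followed by Ccnd1 at 49.7 ± 6.27, Ccnd2 at 30.1 ± 6.62, Ccnd3 at 22.8 ± 7.01, Cdk4 at 21.3 ± 0.885, Cdkn1b at 19.5 ± 1.997, Rb1 at 15.6 ± 0.540 and Cdk6 at 15.4 ± 2.46 RPKM. The neighbours whose sham libraries overlapped in that order were Ccnd2 with Ccnd3, Ccnd3 with Cdk4, Cdk4 with Cdkn1b, and Rb1 with Cdk6. In TAC the order of RPKM was Cdkn1a, Ccnd1, Cdk4, Ccnd2, Cdk6, Ccnd3, Cdkn1b and Rb1, so that Cdk4, at 33.2 ± 1.5997, stood above every library of Ccnd2, at 27.3 ± 3.08. Cdk6 reached 24.5 ± 4.24 RPKM and overlapped with Ccnd2 and with Ccnd3. The last places were held in both groups by Cdkn2b, at 0.639 ± 1.11 and 2.69 ± 0.538 RPKM, and by Cdkn2a, which had reads in 1 library only. The row length behind these values is the authors'. For Cdk6 it is 2470 bases, while GENCODE M21 has coding transcripts of up to 11525 bases, so the RPKM of Cdk6 depends on which part of the transcript its row covers.

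**Figure D1:**
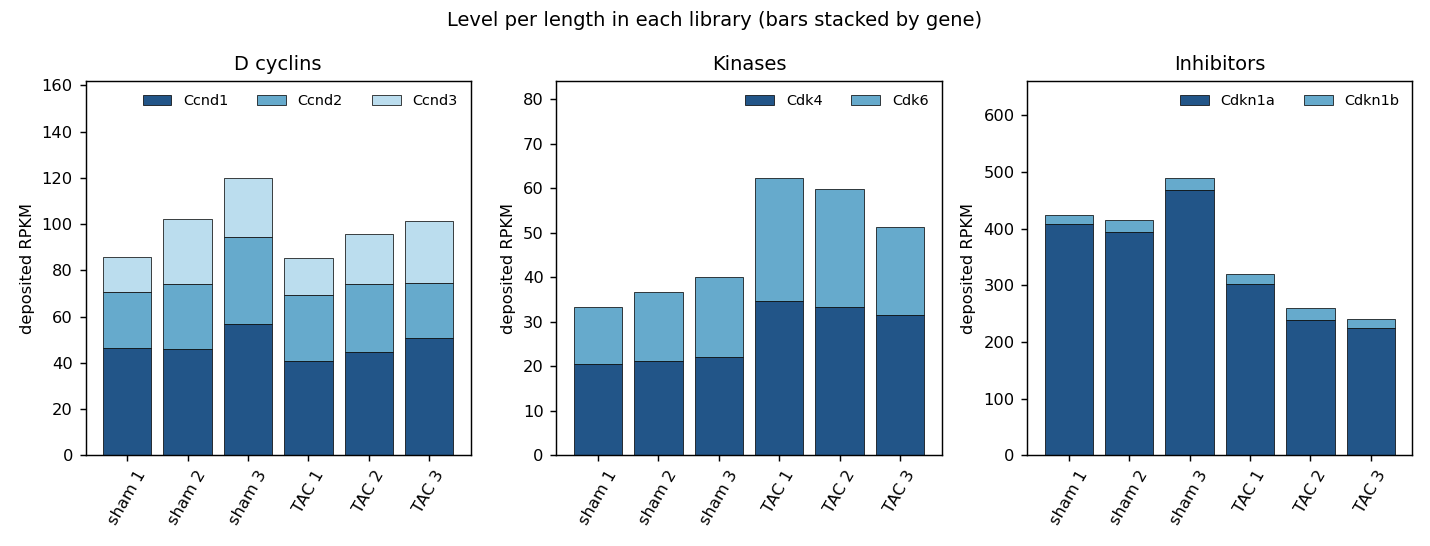
Deposited RPKM (y axis) in each of the 6 libraries (x axis), stacked by gene for the D cyclins, the kinases and the inhibitors Cdkn1a and Cdkn1b. The D cyclin stacks span 85.7 to 119.9 RPKM in sham and 85.5 to 101.4 in TAC, while every TAC kinase stack is taller, and every TAC inhibitor stack shorter, than all sham ones.

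The D cyclins are the part of the G1 machinery that mitogens normally induce. Ccnd1 (chromosome 7, 144929931 to 144939831, minus strand) was measured in CPM, reads scaled by TMM to equal library sizes. Sham replicates 1, 2 and 3 had 178.7, 169.9 and 213.8 CPM, and TAC replicates 1, 2 and 3 had 159.5, 163.9 and 192.5 CPM. The groups overlapped, sham replicate 3 being the highest and TAC replicate 1 the lowest. The log2 change from sham to TAC was -0.13 with a 95% interval from -0.42 to 0.17 (edgeR adjusted p of 0.576).

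Ccnd2 (chromosome 6, 127125162 to 127152188, minus strand) had 144.2, 159.5 and 213.8 CPM in sham and 169.9, 165.1 and 136.5 CPM in TAC. Its highest library was sham replicate 3 and its lowest TAC replicate 3, with the rest in between. The log2 change was -0.13, with an interval from -0.47 to 0.20 (edgeR adjusted p of 0.597). Ccnd3 (chromosome 17, 47505051 to 47599689, plus strand), the D cyclin with the fewest reads, had 32.0, 58.0 and 53.6 CPM in sham and 35.6, 44.7 and 56.2 in TAC. Replicate 1 was the lowest library of both groups. Its log2 change was -0.07 with an interval from -0.53 to 0.38 (edgeR adjusted p of 0.850). The intervals of Ccnd1 and Ccnd2 exclude a doubling, as does that of Ccnd3.

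The mix of D cyclins was alike in both groups. Ccnd1 made up 48.8 ± 4.71% of the summed D cyclin RPKM in sham and 48.1 ± 1.93% in TAC, Ccnd2 29.2 ± 1.82% and 29.2 ± 5.15%, and Ccnd3 22.03 ± 5.09% and 22.7 ± 3.64% (SD, n = 3 each). Each difference was smaller than the spread between libraries. The summed RPKM was 102.6 ± 17.1 in sham and 94.3 ± 8.06 in TAC.

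Cdk4 encodes the kinase partner of the D cyclins in most tissues (chromosome 10, 127063535 to 127067288, plus strand). Sham replicates 1, 2 and 3 had 30.0, 30.0 and 31.7 CPM, and TAC replicates 1, 2 and 3 had 51.8, 46.8 and 45.4 CPM. Every TAC library was above every sham library, and the sham values lay close together. The log2 change was 0.65 ± 0.16 (SE), with an edgeR adjusted p of 0.0113. Without sham replicate 2 the adjusted p was 0.0527 with a log2 change of 0.63, and over all alternatives the adjusted p ran from 0.00392 to that value. Tspan31 lies tail to tail with Cdk4 on the opposite strand, and their annotated ends share 2 bases. It had 116, 135 and 117 counts in sham and 278, 384 and 271 after TAC, and changed by a log2 value of 0.46 ± 0.14 (SE; edgeR adjusted p of 0.0330, not called by DESeq2 at 0.0732, nor without sham replicate 1, 2 or 3 or TAC replicate 1 or 2, where it ran from 0.0501 to 0.129). Tspan31 was looked up after the Cdk4 values were seen.

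Cdk6, the closest relative of Cdk4 (chromosome 5, 3341004 to 3531008, plus strand), had 32.5, 37.3 and 43.7 CPM in sham, and 70.2, 63.1 and 48.4 CPM after TAC. The groups did not overlap, though TAC replicate 3 and sham replicate 3 lay near each other. Separate ranges were seen in 36.2% of all tested genes and in 4 of the 8 tested members (Cdk4, Cdk6, Cdkn1a and Rb1). The log2 change of Cdk6 was 0.68 ± 0.18 (SE), with an edgeR adjusted p of 0.0148. The call was lost without sham replicate 1 (adjusted p of 0.0695), sham replicate 2 (0.0647), TAC replicate 1 (0.0551) or TAC replicate 2 (0.0514). Its log2 change in those fits was 0.58, 0.66, 0.57 and 0.65. Over the other alternatives the adjusted p stayed between 0.00106 and 0.0365.

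The balance between the kinases was alike in both groups. Cdk4 made up 58.2 ± 2.90% of the summed RPKM of Cdk4 and Cdk6 in sham and 57.7 ± 3.32% in TAC. With the cyclin sum nearly level and the kinase sum higher, the ratio of D cyclin RPKM to Cdk4 plus Cdk6 RPKM was 2.57, 2.78 and 2.995 in the sham libraries and 1.37, 1.604 and 1.98 in TAC. The groups did not overlap in this ratio, which was formed after the members' values were seen and is given without a test.

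**Figure D2:**
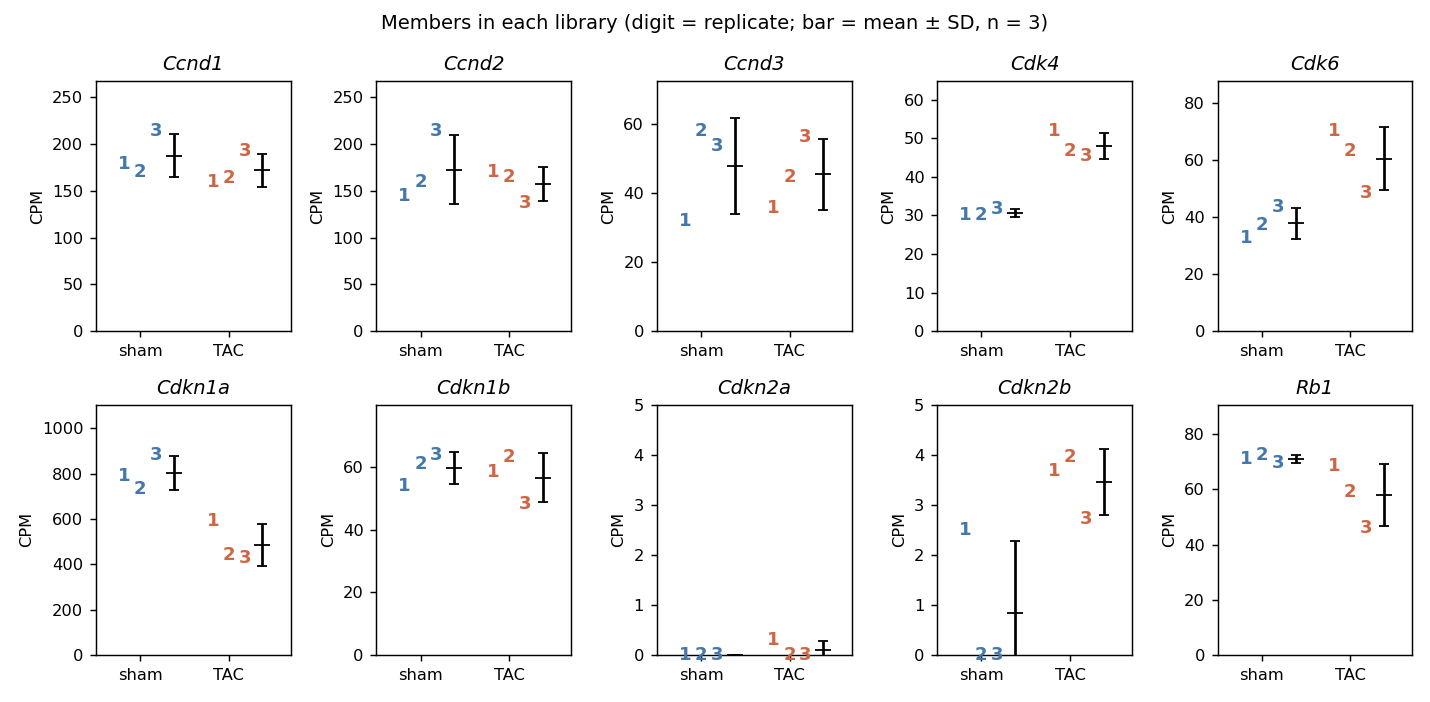
CPM (y axis) of the 10 genes in sham and TAC, each digit marking the replicate number of 1 library and each bar the mean ± SD (n = 3); lower ends are not drawn below 0. All TAC libraries lie above all sham libraries for Cdk4, Cdk6 and the barely detected Cdkn2b, and below them for Cdkn1a and Rb1, while the D cyclins and Cdkn1b overlap.

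Cdkn1a encodes p21, the inhibitor through which p53 and several stress signals halt the cycle (chromosome 17, 29090979 to 29100722, plus strand). Sham replicates 1, 2 and 3 had 790.1, 733.5 and 883.0 CPM, and TAC replicates 1, 2 and 3 had 593.0, 439.1 and 427.0 CPM. All TAC libraries lay below all sham libraries, with TAC replicate 1 the nearest. With 1416 to 1933 counts in every library it was by far the most deeply read member. The log2 change was -0.72 ± 0.15 (SE), with an edgeR adjusted p of 0.00358, and it was called in all alternatives, with an adjusted p from 0.000116 to 0.0245. Relative to the kinases, the RPKM of Cdkn1a was 12.2, 10.7 and 11.7 times that of Cdk4 plus Cdk6 in sham and 4.84, 3.98 and 4.39 times in TAC. This ratio too was formed after the values were seen and is not tested.

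Cdkn1b encodes p27, which accumulates in quiescent cells and is controlled largely by protein breakdown (chromosome 6, 134920401 to 134925525, plus strand). Its level was 54.1, 61.1 and 64.0 CPM in sham, and 58.6, 63.3 and 48.1 CPM after TAC. The groups overlapped, and the log2 change was -0.07 with an interval from -0.40 to 0.26 (edgeR adjusted p of 0.787). Cdkn1c, the third Cip/Kip gene and an imprinted one, had 24.5, 18.6 and 25.8 CPM in sham and 9.51, 10.7 and 11.7 in TAC. It fell, at a log2 change of -1.11 ± 0.23 (SE; edgeR adjusted p of 0.00309) and was called in all alternatives. Cdkn1a made up 93.0 ± 0.157% of the summed Cip/Kip RPKM in sham and 91.2 ± 1.53% in TAC, and Cdkn1b made up 3.94 to 4.79% across the sham libraries and 5.68 to 8.01% across the TAC libraries.

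The INK4 members were near the limit of detection. Cdkn2a (chromosome 4, 89274473 to 89294619, minus strand) encodes p16 and, in another reading frame, p19ARF, both tied to senescence, and its row does not separate them. It had 0 counts in 5 libraries and 1 count in TAC replicate 1. A count of 0 allows up to 3 counts, which is 0.699 to 1.55 CPM depending on the library and covers counting error only. Cdkn2b, which encodes p15 (chromosome 4, 89306289 to 89311032, minus strand), had 5, 0 and 0 counts in the sham libraries, in replicate order, and 12, 17 and 9 after TAC, or 2.50, 0 and 0 against 3.68, 3.96 and 2.71 CPM. Every TAC library was above sham replicate 1, the TAC libraries were also read more deeply, and both genes were left out by the low-count filter. With no filter edgeR gave Cdkn2b a log2 change of 2.04 ± 0.69 (SE) with an adjusted p of 0.0266, against 13.8% of 20841 genes called in that fit, and DESeq2, which called 12.2% of its genes, gave an adjusted p of 0.201. Without sham replicate 2 or 3 it was not called (edgeR adjusted p of 0.258 and 0.259), and without sham replicate 1, the only sham library with reads, the adjusted p of 0.00918 compares TAC with 0 counts and is no support. Of the other INK4 genes, Cdkn2c (p18) had 8.01, 8.81 and 12.4 CPM in sham and 16.3, 15.1 and 9.32 in TAC, and Cdkn2d (p19INK4d) had 6.51, 7.25 and 7.94 against 4.91, 5.59 and 7.82. Neither passed the test, with edgeR adjusted p of 0.279 and 0.646.

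Rb1 encodes the retinoblastoma protein, the target of the D cyclin kinases (chromosome 14, 73192858 to 73325951, minus strand). Its level was 71.1, 72.5 and 69.5 CPM in sham, and 68.4, 59.1 and 46.0 CPM after TAC. All TAC libraries lay below all sham libraries, but TAC replicate 1 by little, and Rb1 did not pass, with a log2 change of -0.30, an interval from -0.64 to 0.05 and an edgeR adjusted p of 0.217. Lpar6 lies within the Rb1 gene on the opposite strand and is listed as P2ry5, with 22 to 36 counts per library against 140 to 254 for Rb1. Its log2 change was -0.90 ± 0.27 (SE), and its call (edgeR adjusted p of 0.0254) was lost in DESeq2 (0.0935) and without sham replicate 1 (0.0605) or 2 (0.0926) or TAC replicate 2 (0.0692) or 3 (0.0633). The library kit does not mark strand, and 45.2 to 52.3% of the reads of each of the 8 tested members were on the forward strand, so reads of overlapping genes cannot be told apart by strand. Ccnd1 overlaps Lto1 (listed as Oraov1) by 818 bases and Ccnd3 overlaps Bysl by 359 bases, and these had at most 15 and 48 counts in any library.

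**Figure D3:**
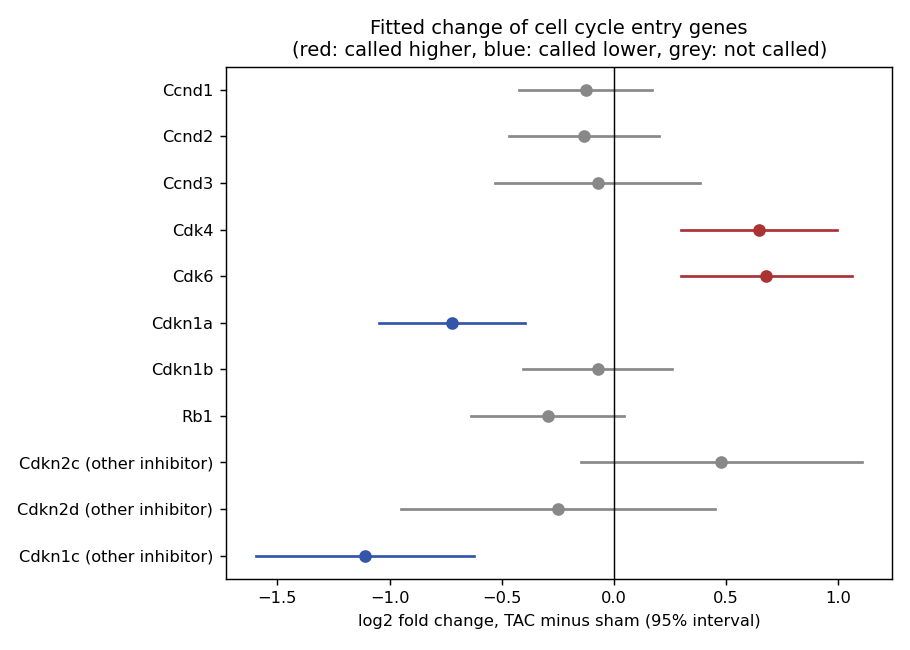
Log2 fold change, TAC minus sham (x axis), with its 95% interval for the 8 tested members and the 3 tested genes among the other inhibitors (y axis). Cdk4 and Cdk6 lie to the right of 0 and Cdkn1a and Cdkn1c to the left, and the intervals of the D cyclins, Cdkn1b, Rb1, Cdkn2c and Cdkn2d include 0.

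The summed markers of most other cell types and of a list of stress response genes did not overlap between the groups. The cardiomyocyte and lymphocyte sums did overlap. The part of these lists in the results was not tested. In bulk samples fewer cells of a type and less RNA per cell cannot be told apart. For comparison with the counts of each list, 8.28% of all 12612 tested genes were called higher and 10.4% lower. Of 12 immediate early and heat shock genes, listed after the data were seen, 8 fell and none rose. Their summed level was 14298 to 14878 CPM in sham and 7746 to 8385 CPM in TAC. The calls of Jun, Junb and Dusp1 were each lost in some alternatives. Pericyte and smooth muscle markers (3 of 10 fell) had sums of 3175, 2964 and 4997 CPM in the sham libraries, in replicate order, against 2676, 2383 and 1355 CPM after TAC, with sham replicate 3 highest and TAC replicate 3 lowest, as for Ccnd2. Macrophage and leukocyte markers (2 of 10 rose) summed to 19.7 to 67.1 CPM in sham and to 72.7, 73.3 and 207.2 in TAC replicates 1, 2 and 3, and Ptprc, the leukocyte antigen CD45, was at 0 counts in all sham libraries. Epicardial markers (2 of 6 fell) summed to 214.3 to 415.2 CPM in sham and 70.2 to 143.7 in TAC. Most of that sum in sham came from Muc16, at 203.8 ± 76.8 CPM in sham and 61.6 ± 17.8 in TAC (SD). The other called gene, Upk3b, was not called in DESeq2 (adjusted p of 0.276) and some other alternatives. Msln, Wt1, Krt19 and Upk1b had lower means after TAC, but their groups overlapped and they were not called. Schwann cell markers (2 of 6 fell) summed to 45.6 to 55.6 CPM in sham and 28.0 to 41.7 in TAC. Cardiomyocyte ones (1 of 8 rose) summed to 98.1 to 257.0 CPM in sham and 179.1 to 381.0 in TAC. The riser was Nppa, at 10.2 ± 5.45 CPM in sham and 38.4 ± 6.70 in TAC (SD). The other cardiomyocyte markers overlapped between the groups and were not called. Endothelial markers (1 of 8 fell) summed to 212.3 to 275.8 CPM in sham and 150.2 to 166.9 in TAC. The lower endothelial sum came mostly from Tek, with 189, 197 and 198 CPM in the sham libraries against 98, 102 and 85 after TAC. Among the other endothelial markers only Kdr had a lower mean after TAC (10.7 against 19.2 CPM). Pecam1, Cdh5, Vwf, Tie1, Emcn and Flt1 had higher means. Cdh5 was higher in every TAC library, with a log2 change of 0.87, but was not called (edgeR adjusted p of 0.0648). Of 6 lymphocyte markers none was tested, 5 were at 0 in sham, and their sum was at most 4.51 CPM. The 8 fibroblast markers were all tested and summed to 21734 to 30332 CPM in sham and 32810 to 40255 in TAC (3 rose and 4 fell). The 3 that rose were the collagen genes Col1a1, Col1a2 and Col3a1, and the 4 that fell were Pdgfra, Ddr2, Tcf21 and Dcn. Col3a1 went from 5772 ± 2214 to 14093 ± 2152 CPM, and Dcn from 11090 ± 973 to 6982 ± 395 CPM (SD, n = 3 each). The higher fibroblast sum in TAC thus came from the collagens. Counts on genes were 1909337 to 2056097 per library in sham and 3351479 to 4207312 in TAC.

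The rest of the pathway was read from 10 lists with 109 genes, of which 81 were tested. Of these 16 rose and 7 fell, 28.4% against 18.7% of all tested genes, with a median log2 change of 0.23 against 0.01. The lists were chosen with earlier results of these data known, so these values are a description only. The filter asked for 3.70 CPM in at least 3 libraries, and 13 of the 81 reached it in all TAC but not in all sham libraries, against 832 of the 12612 genes. Such a gene was tested through its TAC level, so the counts and medians of the lists that hold one are descriptions and not support. Among the members all 8 tested genes reached it in every sham library.

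In the list of cyclin E, cyclin A, CDK2 and the CDK-activating kinase, 1 of 6 tested genes rose and none fell (median log2 change of 0.02). The riser was Ccna2, cyclin A2, which reached the filter's level in 2 of 3 sham libraries, acts in S phase and G2 and had 5.01, 3.11 and 9.43 CPM in sham and 21.8, 21.9 and 36.4 in TAC. Its log2 change was 2.17 ± 0.34 (SE; edgeR adjusted p of 0.000277). Ccne1, cyclin E1, was too low to test, with at most 2 counts in a sham library. Of the other pocket proteins, E2F and DP factors none of 9 was called by DESeq2 or by edgeR with the filter and all 6 libraries. Of these 9, 3 had an unadjusted edgeR p under 0.05. With no filter edgeR called 2 of the 12 listed genes higher, against 1579 of 20841 genes. E2f3, at the filter's level in 1 of 3 sham libraries, was called by edgeR with no filter (adjusted p of 0.0267) and without sham replicate 2 (0.0204). The highest CPM, averaged over both groups, were those of Rbl2, the pocket protein p130 of quiescent cells, at 108.6 ± 13.5 and 90.0 ± 10.97 CPM, and Tfdp1, the partner DP1 of the E2Fs, at 23.7 ± 2.67 and 32.5 ± 6.36 CPM (sham, then TAC; SD, n = 3 each), not compared per length, with edgeR adjusted p of 0.221 and 0.127. Of 11 tested genes for proteins that set cyclin and inhibitor levels, Cks1b rose alone, and it reached the filter's level in 2 of 3 sham libraries. It encodes a cofactor of the ligase that marks p27 for breakdown, and its log2 change was 1.26 ± 0.35 (SE; edgeR adjusted p of 0.0191), with the call lost in DESeq2 (0.0522) and without sham replicate 3 (0.0991).

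Among 6 tested genes of the MYC network, Myc fell and Mnt rose. Myc, a growth factor response gene whose protein binds E-boxes, had 740.5, 567.2 and 690.0 CPM in sham and 509.2, 314.6 and 305.8 in TAC, without overlap. Its log2 change was -0.82 ± 0.18 (SE; edgeR adjusted p of 0.00505). Mnt, a repressor that competes with MYC for E-boxes, rose by 1.01 ± 0.24 on the log2 scale (edgeR adjusted p of 0.00733). Both were called in all alternatives.

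Of 18 E2F targets of S phase entry 13 were tested, 2 rose and 2 fell, and the median log2 change was 0.71. Tyms, thymidylate synthase, rose by 1.20 ± 0.23 and Mcm6, a helicase subunit, by 0.87 ± 0.23 (SE; edgeR adjusted p of 0.00189 and 0.0133). Rrm1, the large subunit of ribonucleotide reductase, fell with -0.98 ± 0.17 and Slbp, which binds histone mRNA, with -0.56 ± 0.16 (0.000835 and 0.0245). Mcm6 was not called in DESeq2 (adjusted p of 0.0511) or without sham replicate 2 (0.0651). Slbp was not called with no filter (0.0593), in DESeq2 (0.0816) or without sham replicate 2 (0.0992), sham replicate 3 (0.0748) or TAC replicate 2 (0.0875).

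Cdkn1a is a classic p53 target, and 18 of the 20 genes of the p53 list were tested. Of these 4 rose and 2 fell, with a median log2 change of 0.53, and 12 did not pass. DESeq2 called 4 of them, without Phlda3 (adjusted p of 0.0611) and Trp53inp1 (0.0523), 2 of the 4 rises. Without sham replicate 2 these same genes also missed the threshold (edgeR adjusted p of 0.0552 and 0.106). Gadd45a, a growth arrest gene, fell with -1.53 ± 0.18 and Btg2, an antiproliferative gene, with -0.88 ± 0.13 (SE; edgeR adjusted p of 2.31e-05 and 0.000193). Tnfrsf10b, a death receptor, rose by 2.20 ± 0.32 and Zmat3, an RNA-binding p53 target, by 0.79 ± 0.16 (0.000166 and 0.00258). Gadd45a, Btg2, Tnfrsf10b and Zmat3 were called in all alternatives. The sham value of Tnfrsf10b rests on 9, 5 and 7 counts in replicates 1, 2 and 3. This gene reached the filter's level in 1 of 3 sham libraries and in all TAC libraries, so it was tested through its TAC level. Trp53 itself was at 54.0 ± 5.29 CPM in sham, and after TAC at 66.3 ± 6.36 CPM (SD, n = 3 each), which missed the threshold (edgeR adjusted p of 0.183).

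In the list of mitotic cyclins and their kinase 6 of 10 genes were tested and these 6 were called higher, but Ccnb1, Ccnb2, Cdk1 and Cdc20 passed the filter only through TAC, and Mki67 and Wee1 alone also reached it in every sham library. With no filter on counts 8 of the 10 were called higher by edgeR, against 1579 of all 20841 genes in that fit. The calls of Ccnb1 and Wee1 were each lost in some alternatives. Mki67, a marker of cycling cells, rose by 3.04 ± 0.30, Ccnb2, cyclin B2, by 2.33 ± 0.37, Cdk1, the mitotic kinase (listed as Cdc2a), by 3.05 ± 0.56 and Cdc20, which activates the ligase that ends mitosis, by 1.93 ± 0.41 (SE; edgeR adjusted p of 3.14e-06, 0.000344, 0.00122 and 0.00358). Cdk1 rests on 2, 3 and 1 sham counts, and Ccnb2 and Cdc20 on at most 8, so these folds are imprecise. Without sham replicate 3 the log2 change of Mki67 was 3.86. Foxm1, the factor that drives the mitotic genes, rose by 2.28 ± 0.35 (edgeR adjusted p of 0.000230), the only 1 of 6 tested genes in the list of MuvB and FoxM1. Of 3 tested FoxO and cyclin G2 genes Foxo1, which supports quiescence, fell with -0.67 ± 0.16 (0.00897, and 0.0600 without sham replicate 3).

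**Figure D4:**
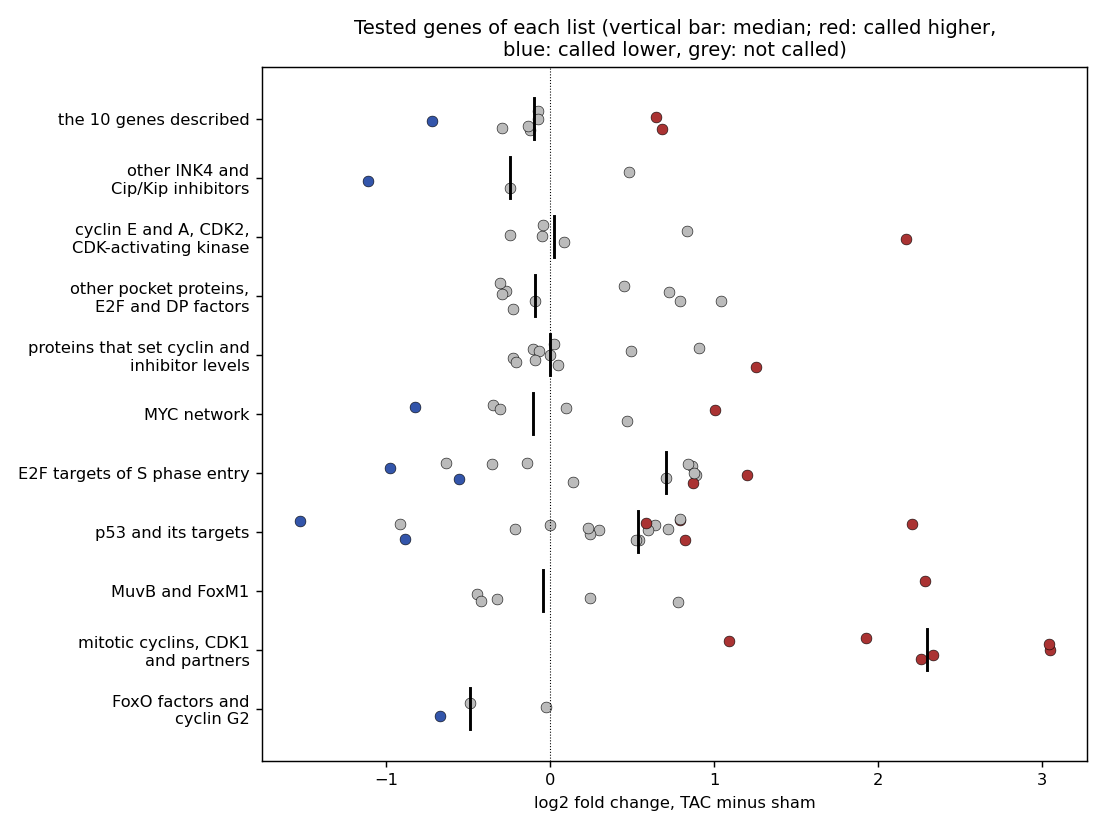
Log2 fold change, TAC minus sham (x axis), of every tested gene among the members and the 10 pathway lists (y axis, 1 point per gene, vertical bar at the median). The median is -0.10 for the members and 2.295 for the mitotic list, in which 4 of the 6 points are genes that passed the filter only through TAC.

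The genes whose log2 CPM over the 6 libraries was most like that of 3 members were found among 11615 genes with a mean of at least 5 CPM. For Cdk4 they were Ext1 (Pearson r of 0.999), Iqgap1 (0.997) and Col27a1 (0.996), and for Cdkn1a Dnajb6 (0.995), Dazap2 (0.995) and Akap2 (0.994). For Ccnd1 they were Amd2 (0.974), Cars2 (0.969) and Rhot2 (0.967). Amd2 has a near-identical copy, so its reads are uncertain. The 6 libraries fall into 2 groups, and the correlations are a description.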

How the data were processed

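RNA from 6 libraries of sorted Thy1+HE- heart cells, 3 sham and 3 TAC, was read as single reads. The read counts per gene were made by the authors with NextGENe 2.3.3, per the file headers. The submitters' processing notes name mm10 and Partek 6.6 without their roles, and the handling of reads with several matches is not stated there. The RPKM values were deposited by the authors beside the counts and the row lengths.

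Rows of 1 symbol were summed. Low genes were removed with filterByExpr and libraries scaled by TMM (edgeR 4.0.16, R 4.3.3). TAC was set against sham in edgeR's quasi-likelihood framework (a two-sided test), p-values were adjusted after Benjamini and Hochberg over every tested gene, and 0.05 was the threshold. Standard errors and 95% intervals came from the F statistic. The members and lists were chosen with earlier results of these data known. From each pathway list up to 4 called genes with the smallest adjusted p were named, or the 2 with the highest CPM where none was called, and the 3 genes most like Ccnd1 and the most clearly changed member in each direction. Lists were matched through RefSeq synonyms. Alternatives used DESeq2 1.42.0, limma 3.58.1 on log2(RPKM + 1) and log2(RPKM + 0.1), other scalings and filters, a robust fit, a replicate block and each library left out. The ratios between members, the overlapping genes, the immediate early list and the other cyclins were chosen after seeing the data. The script was tested on counts simulated from the mean sham levels and the library sizes. Every gene had the same dispersion, and only genes above a minimum level were changed. Of 12517 genes kept, 100 had a 2-fold change, of which 71 were called, 100 had a 4-fold change, of which 100 were called, and 15 others were called wrongly. The spread of the real replicates was not modelled, so these figures need not hold for the real libraries. Plots were drawn with matplotlib 3.10.9.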

Additional observations from a re-analysis of the deposited data

How the results depend on the processing

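The number of called members was 3 under upper quartile and RLE scaling, a minimum of 10 counts in 3 libraries, DESeq2, both limma fits, the robust fit and the replicate block, and 4 with no filter, where Cdkn2b was added. Leaving out 1 library gave 1 to 3 called members, the lowest without sham replicate 2 (without sham replicate 1 the count of 3 includes Cdkn2b, which then passed the filter only through TAC and was compared with 0 counts), and 1454 to 2261 called genes in all. Called pathway genes numbered 20 to 32 over all alternatives, against 23. Fits without 1 library have fewer samples. The members whose direction changed were not called: over the fits without 1 library the log2 fold change ran from -0.25 to 0.045 for Ccnd2, from -0.30 to 0.079 for Ccnd3 and from -0.16 to 0.034 for Cdkn1b, above 0 without sham replicate 3 (Ccnd2, and Ccnd3 at 0.012), sham replicate 2 or TAC replicate 1 (Ccnd3, 0.079 and 0.073) and TAC replicate 3 (Cdkn1b). Taken from counts and not RPKM, the share of Cdkn1b in the Cip/Kip sum was 3.59 percentage points higher in TAC, against 2.38, by construction since length then weighs in. Deviations of same-numbered libraries correlated at 0.108, -0.0275 and -0.201 over 5086 genes. The labels do not say whether a number pairs libraries, and with 3 libraries per group these correlations cannot decide it. The replicate block gave 2346 called genes against 2353, and kept Cdk4, Cdk6 and Cdkn1a called (edgeR adjusted p of 0.0180, 0.0213 and 0.00170). Depth left Cdkn2a, Cdkn2b and pathway genes such as Ccne1 untested.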

Other observations

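The other cyclin and kinase rows of the reports were chosen by their symbols alone after the data were seen. They were 13 rows named Ccn with a letter and a number, or Cdk or Cdkl with a number, that stand in none of the lists above, and 10 were tested. Of these 10, 2 were called, both lower, a share close to the 18.7% called over all tested genes, and the median over the 10 was a log2 fold change of -0.40. Ccnl1, cyclin L1, which works with kinases of RNA splicing and not of the cell cycle, went from 363.1 ± 33.6 CPM in sham to 159.7 ± 26.1 in TAC (SD, n = 3 each), a log2 fold change of -1.19 ± 0.15 (SE; edgeR adjusted p of 3.44e-05). Cdkl2, a CDK-like kinase, went from 31.4 ± 1.14 to 17.6 ± 4.10 CPM, with -0.83 ± 0.21 (edgeR adjusted p of 0.0106). Both were called in all alternatives. The transcription elongation cyclins Ccnt1 and Ccnt2 were lower in every TAC library but did not pass (edgeR adjusted p of 0.125 and 0.240), and Cdk9, their kinase, did not pass either (0.428).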
